A study of Mus musculus with 6 samples.

Results

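The ZIC genes described here are Zic1, Zic2, Zic4 and Zic5, 4 of the 51912 genes counted, and they were found by matching these symbols to the Ensembl identifiers of the count table. Messenger RNA of R1 cells, a mouse embryonic stem cell line, was sequenced at 2 time points with 3 replicates each. Before the experiment all cells were kept in the naive state in 2iLIF, a medium with 2 kinase inhibitors and the cytokine LIF, and both groups were then moved to serum-free N2B27 medium that held FGF2 at 100 ng/ml. One group was collected after 24 h and the other after 48 h. The labels give no genetic change and do not say whether replicates were separate cultures, so p-values measure the spread between these libraries, which may be technical. Cells in the starting medium, or in N2B27 without FGF2, were not analysed here, so an effect of FGF2 cannot be told apart from those of the medium and of time in culture.

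ZIC proteins (zinc finger of the cerebellum) are transcription factors with a block of C2H2 zinc fingers closely related to that of the GLI proteins, the effectors of Hedgehog signalling. They act in the neural plate, the neural crest and the dorsal brain, and loss of human ZIC2 is a cause of holoprosencephaly, a failure of the forebrain to divide. In embryonic stem cells Zic2 protein has been described together with NuRD, a chromatin remodelling and deacetylase complex. The genes sit in head-to-head pairs, each with 1 gene on either strand.

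Zic1 and Zic4 form the pair on chromosome 9 (GRCm38, GENCODE M21). Zic1 (ENSMUSG00000032368) lies on the minus strand at chr9:91358058-91365810 and Zic4 (ENSMUSG00000036972) on the plus strand at chr9:91362413-91389348. Their gene bodies overlap by 3398 bases, but their exons share only 60 bases, of 5693 exonic bases of Zic1. Zic5 (ENSMUSG00000041703, minus strand, chr14:122456795-122465677) and Zic2 (ENSMUSG00000061524, plus strand, chr14:122475435-122479852) form the pair on chromosome 14. Their annotated gene starts are 9758 bases apart, and no exon of either overlaps that of another gene.

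Because paralogs can exchange reads in counting, the coding sequences of the longest coding transcripts were compared. A window of 90 bases is shown for that reason, with capitals at positions where the 4 genes are not all the same. It was chosen for the most matches to Zic2, summed over the other genes and without gaps. It lies in the first exon of each transcript, at chr9:91364199-91364288 (minus strand) in Zic1, chr14:122476495-122476584 (plus) in Zic2, chr9:91379150-91379239 (plus) in Zic4 and chr14:122464055-122464144 (minus) in Zic5, and is read 5′ to 3′ on the coding strand from the GENCODE M21 transcripts.
Zic1: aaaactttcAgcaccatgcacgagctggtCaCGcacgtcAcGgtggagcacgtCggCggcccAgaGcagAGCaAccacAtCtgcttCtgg
Zic2: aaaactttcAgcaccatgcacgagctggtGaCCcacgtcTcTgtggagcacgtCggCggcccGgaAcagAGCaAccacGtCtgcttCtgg
Zic4: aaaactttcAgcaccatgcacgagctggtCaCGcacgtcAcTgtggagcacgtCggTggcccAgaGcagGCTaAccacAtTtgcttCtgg
Zic5: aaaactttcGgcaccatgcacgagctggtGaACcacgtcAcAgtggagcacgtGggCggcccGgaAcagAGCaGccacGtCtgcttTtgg

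In that window 73 of 90 positions were the same in the 4 genes, and Zic1, Zic5 and Zic4 differed from Zic2 at 7, 7 and 11 positions. Over the whole coding sequences, between 73.0% (Zic2 and Zic5) and 79.8% (Zic1 and Zic2) of aligned bases were identical. The longest run of identical coding bases was 42 for Zic1 and Zic4, 35 for Zic1 and Zic2 and 26 for Zic2 and Zic5. No run of 50 coding bases was common to any pair. Untranslated sequences and opposite strands were not compared, and exons of Zic1 and Zic4 share 60 bases on opposite strands. The counts of Zic1, Zic2 and Zic4 were whole numbers in every library. Those of Zic5 were whole in 4 libraries and fractional in 2, at 3825.76 and 4002.75 in replicates 1 and 2 of 48 h, which shows that some of its reads were divided between genes or weighted there. Which gene shared them was not tested.

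The libraries held between 19574969 and 23133148 estimated counts. Levels are given as CPM, counts scaled to a library of 1000000 after TMM (trimmed mean of M values, edgeR's correction for library composition), and differences as log2 fold changes of 48 h over 24 h from edgeR's quasi-likelihood test on 14889 genes. A gene is called changed at a Benjamini-Hochberg adjusted p under 0.05 over all genes tested. Between the 2 times 62.8% of tested genes were called, 30.9% higher and 31.9% lower at 48 h. Of the 4 ZIC genes, 3 passed the filter on low counts. Zic2 and Zic5 passed it at both times and were called higher at 48 h, with no overlap between the groups. Groups that did not overlap, with 48 h higher, were seen for 32.7% of all tested genes, whether called or not. The fitted increases of Zic2 and Zic5 exceeded 2-fold, and an increase of at least that size was called for 4.59% of tested genes. Zic1 was called higher as well, but it passed the filter only through its 48 h libraries, so its call is not set against these shares.

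Zic2, the ZIC gene tied to forebrain division, had the highest level of the 4 per transcript length (CPM per kb). Its counts at 24 h were 1779, 1795 and 2147, and those at 48 h were 4561, 4586 and 4557. In CPM these were 89.1, 87.6 and 91.0 at 24 h and 209.9, 209.6 and 205.5 at 48 h. Each time point was tight and the 48 h libraries all lay more than 2-fold above the 24 h libraries. The mean rose from 89.2 ± 1.68 CPM to 208.4 ± 2.44 CPM (SD, n = 3 per time), which gives 1.22 ± 0.03 (standard error) as the log2 fold change (edgeR adjusted p = 3.88e-16), or 2.33-fold. Of all tested genes, 3.28% had a log2 fold change as high or higher. At 24 h 82.0% of tested genes had a lower mean CPM than Zic2, and at 48 h 92.9% did.

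Zic5, its neighbour and a factor of the dorsal neural tube and neural crest, moved almost as far. It had 1756, 1720 and 1801 counts at 24 h and 3825.76, 4002.75 and 3967 at 48 h. These counts correspond to 87.9, 84.0 and 76.3 CPM at 24 h and 176.1, 183.0 and 178.9 CPM at 48 h. The lowest 24 h value was that of replicate 3, which held the highest Zic2 value of that time. The mean rose from 82.7 ± 5.89 CPM to 179.3 ± 3.45 CPM (SD, n = 3 per time), which gives 1.12 ± 0.04 (standard error) as the log2 fold change (edgeR adjusted p = 1.97e-13), or 2.17-fold.

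Whether the balance within the pair shifted was asked with the log2 ratio of Zic2 to Zic5 counts in each library (0.5 added to each count), which needs no scaling of libraries. The ratio was 0.02, 0.06 and 0.25 in replicates 1, 2 and 3 of 24 h and 0.25, 0.20 and 0.20 in those of 48 h. Replicate 3 of 24 h therefore lay among the 48 h libraries. The mean ratio differed by 0.11 between the times (0.11 ± 0.12 at 24 h and 0.22 ± 0.03 at 48 h, SD, n = 3), which a two-sided exact permutation test did not separate (p = 0.3, where 3 against 3 libraries cannot go below 0.1). Leaving out that library took the difference to 0.18.

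**Figure D1:**
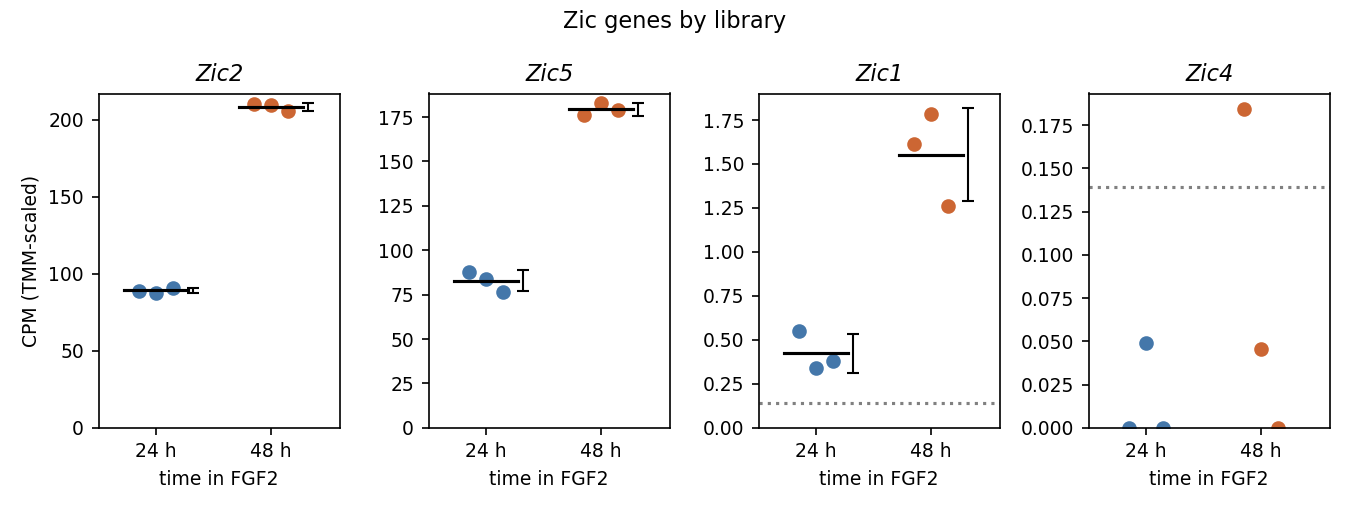
Each dot is 1 library (3 at 24 h in blue, 3 at 48 h in orange), plotted as CPM on a linear axis from 0 that differs between panels; bars are means and error bars SDs, left out for Zic4. Zic2 sits near 89 CPM at 24 h and 208 CPM at 48 h and Zic5 near 83 and 179, while Zic1 stays below 2 CPM and Zic4 has 1 of 6 libraries above the level of 3 counts (dotted line).

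Zic1, which acts in the cerebellum and dorsal neural tube, was present at a far lower level. Its counts were 11, 7 and 9 at 24 h and 35, 39 and 28 at 48 h. The corresponding levels were 0.551, 0.342 and 0.381 CPM at 24 h and 1.61, 1.78 and 1.26 CPM at 48 h. The groups did not overlap, and every library stood above the 0.127 to 0.150 CPM that 3 counts give at these depths. The mean rose from 0.425 ± 0.111 CPM to 1.55 ± 0.265 CPM (SD, n = 3 per time), which gives 1.86 ± 0.31 (standard error) as the log2 fold change (edgeR adjusted p = 5.51e-05). Zic1 passed the filter on low counts (a minimum count of about 10 in 3 libraries) through its 48 h libraries, so its entry into the test depended on its counts there. Its fold change exceeded that of Zic2 and Zic5 in size, but that difference was not tested.

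Zic4, the partner of Zic1, was near the limit of detection. It had 0, 1 and 0 counts at 24 h and 4, 1 and 0 at 48 h, too few for the test. A single 48 h library, replicate 1, lay above 3 counts, and replicate 3 of that time had none. The summed counts of 1 and 5 give a ratio of 4.87 between the times, with an exact 95% interval from 0.545 to 230.3 that covers counting error only, so neither a rise nor a fall was detectable at this depth. In each 48 h library Zic1 had more counts than Zic4, 35 against 4, 39 against 1 and 28 against 0. The log2 ratio of Zic1 to Zic4 was 3.70 ± 1.20 at 24 h and 4.51 ± 1.44 at 48 h (SD, n = 3; two-sided exact permutation p = 0.4) and was set largely by the added 0.5.

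To compare levels between the genes, CPM was divided by the length of the longest coding transcript, which is 5606 bases for Zic1, 2440 for Zic2, 3891 for Zic4 and 4767 for Zic5. On this scale the order at 48 h was Zic2 at 85.4 ± 1.001, Zic5 at 37.6 ± 0.724 and Zic1 at 0.277 ± 0.0472 CPM per kb (SD, n = 3), with Zic4 below them at its few counts. At 24 h the order was the same, with 36.6 ± 0.688, 17.4 ± 1.24 and 0.0757 ± 0.0198 CPM per kb. The levels of neighbours in the order Zic2, Zic5, Zic1 lay apart by more than their spread at both times. Zic2 and Zic5, with similar counts, thus differed 2.11-fold per kb at 24 h and 2.27-fold at 48 h, or 1.83-fold and 1.97-fold with the union of all annotated exons as the length. Which transcripts the cells used was not tested. The level of Zic5 per kb was 229-fold that of Zic1 at 24 h and 136-fold at 48 h.

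**Figure D2:**
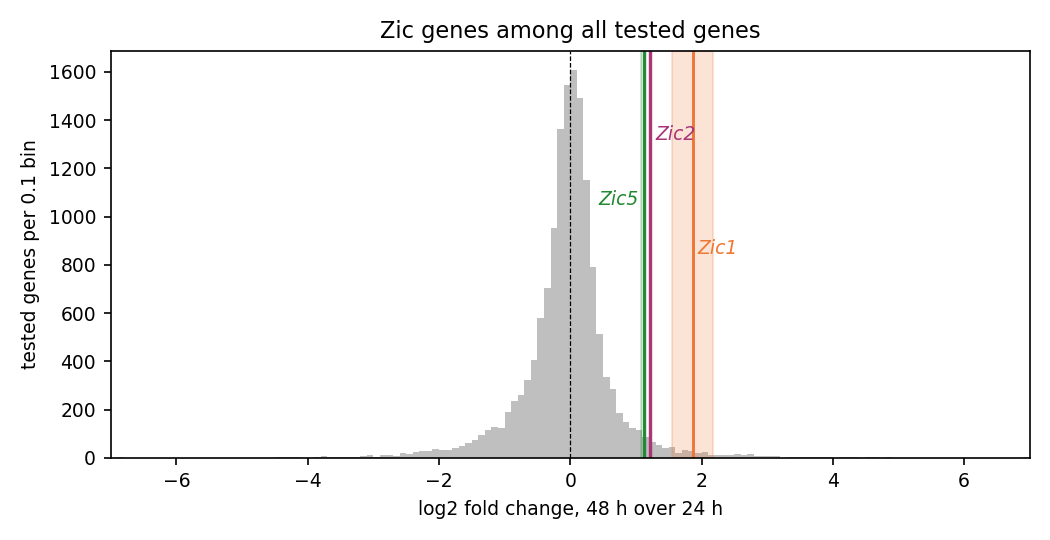
Grey bars count the 14889 tested genes in bins of 0.1 of the log2 fold change (48 h over 24 h), and vertical lines mark Zic5 (1.12), Zic2 (1.22) and Zic1 (1.86), with a shaded band of 1 standard error on each side. The 3 lines lie on the right flank of the distribution, whose median is -0.01, and the band of Zic1 is the widest.

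Sequences around the annotated starts, from 250 bases before to 50 after, were found in RefSeq (GRCm38.p6) for 3 of the 4 genes. They are shown to compare the letters at the starts of the genes, with CG dinucleotides in capitals. The Zic1 and Zic5 windows hold the gene starts given above, while the Zic4 window lies at a start inside the gene, downstream of the first start that GENCODE M21 gives among its 12 transcripts. The windows are chr9:91365719-91366018 (minus strand), chr9:91368722-91369021 (plus) and chr14:122465609-122465908 (minus), each written 5′ to 3′ in the direction of its gene.
Zic1: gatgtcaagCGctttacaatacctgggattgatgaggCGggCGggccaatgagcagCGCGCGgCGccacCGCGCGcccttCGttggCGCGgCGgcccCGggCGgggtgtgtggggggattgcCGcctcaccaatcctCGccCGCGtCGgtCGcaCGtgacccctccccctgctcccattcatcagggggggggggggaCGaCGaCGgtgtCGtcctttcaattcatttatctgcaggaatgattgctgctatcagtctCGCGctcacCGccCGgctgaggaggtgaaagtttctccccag
Zic4: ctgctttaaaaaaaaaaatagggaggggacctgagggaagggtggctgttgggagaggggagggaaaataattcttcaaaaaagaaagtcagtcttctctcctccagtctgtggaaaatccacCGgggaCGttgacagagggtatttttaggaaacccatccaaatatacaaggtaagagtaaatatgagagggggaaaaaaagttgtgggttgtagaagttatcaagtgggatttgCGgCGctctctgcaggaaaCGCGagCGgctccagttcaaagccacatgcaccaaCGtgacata
Zic5: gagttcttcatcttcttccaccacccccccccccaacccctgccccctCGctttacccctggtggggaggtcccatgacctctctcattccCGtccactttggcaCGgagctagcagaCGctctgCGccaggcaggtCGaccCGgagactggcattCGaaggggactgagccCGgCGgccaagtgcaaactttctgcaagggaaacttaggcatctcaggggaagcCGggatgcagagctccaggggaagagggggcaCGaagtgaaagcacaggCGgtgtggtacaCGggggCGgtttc

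The Zic1 window held 31 CG dinucleotides, with 65.3% G and C, and 89.4% of the 32851 promoter windows of this length had fewer. The Zic5 window held 15 (62.7% G and C) and the Zic4 window 8 (46.0%), against a median of 7 over all windows. No relation of these counts to expression was tested. The GC box GGGCGG, on either strand, matched 3 times in Zic1, once in Zic5 and not in Zic4, and was present in 35.7% of all windows. The CCAAT box CCAAT matched 2 times in Zic1 and in neither of the others (37.4% of all windows). The TATA box TATAAA (13.6% of all windows) and CAGCAGG, a core of the motif bound by ZIC proteins (10.5%), matched in none of the 3 windows. The matches in the Zic1 window did not overlap one another (28 letters in all). A match describes the letters only.

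The genes around each pair were examined to see how far the changes reached along the chromosome. Between the starts of Zic5 and Zic2 lies the non-coding gene 2610035F20Rik (ENSMUSG00000085555, named after its values were seen), on the minus strand, whose start is 236 bases from that of Zic2. It had 8, 11 and 16 counts at 24 h and 42, 30 and 35 at 48 h. Its groups did not overlap, and its mean rose from 0.539 ± 0.139 CPM to 1.63 ± 0.284 CPM (SD, n = 3 per time), which gives 1.57 ± 0.29 (standard error) as the log2 fold change (edgeR adjusted p = 0.000176). Like Zic1 it passed the filter through its 48 h libraries, and its exons overlap none of Zic2 or Zic5.

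On either side, most of the nearest genes had too few counts for the test. The first tested gene outside the pair lay 54.56 kb away on the left and 54.47 kb on the right. Whether the change reached beyond the pair within those distances was not tested. The nearest gene left of the pair, Gm5089 (ENSMUSG00000064052), had 1 to 4 counts at 24 h and 4 to 11 at 48 h and was not tested. The next, Clybl, a mitochondrial enzyme gene, fell from a mean of 20.3 ± 0.838 CPM to 16.8 ± 0.989 CPM (SD, n = 3), with a log2 fold change of -0.27 (edgeR adjusted p = 0.00256). The 2 nearest genes on the right, Gm10837 and Gm9399, had no count in any library. Pcca, the nearest expressed gene on that side (also named after its values were seen, as were those that follow), encodes a subunit of propionyl-CoA carboxylase and had a log2 fold change of -0.08 (edgeR adjusted p = 0.141, and 0.0144 with library size as the only scaling).

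Within 600 kb of the pair on each side, 10 other genes were tested, of which 2 were called higher and 4 lower. Over all tested genes 30.9% were called higher and 31.9% lower, so these counts do not set the neighbours apart. Of the 4 lower, Ubac2 was not called with DESeq2 (adjusted p = 0.0619). The 2 higher were 2610035F20Rik and Ggact (log2 fold change 0.28, edgeR adjusted p = 0.0233, which lost its call under several alternatives and was 0.123 with DESeq2). The largest decrease among the 10 was that of Tmtc4, with a log2 fold change of -0.72 (edgeR adjusted p = 1.81e-07). Apart from 2610035F20Rik and the pair itself, no tested gene of that window had a log2 fold change above 0.40, the value of Timm8a2, which was not called (adjusted p = 0.18). Around Zic1 and Zic4 the same window held 18 other genes, of which 17 had no count in any library. These 17 include the 2 nearest on each side, A730094K22Rik, Gm28652, Gm29478 and Gm37987. The other one, the processed pseudogene Gm5620, lies 259.6 kb from the pair, had fractional counts and was called higher (log2 fold change 0.65, edgeR adjusted p = 0.00629). A count of 0 allows up to 0.127 to 0.150 CPM in a library.

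**Figure D3:**
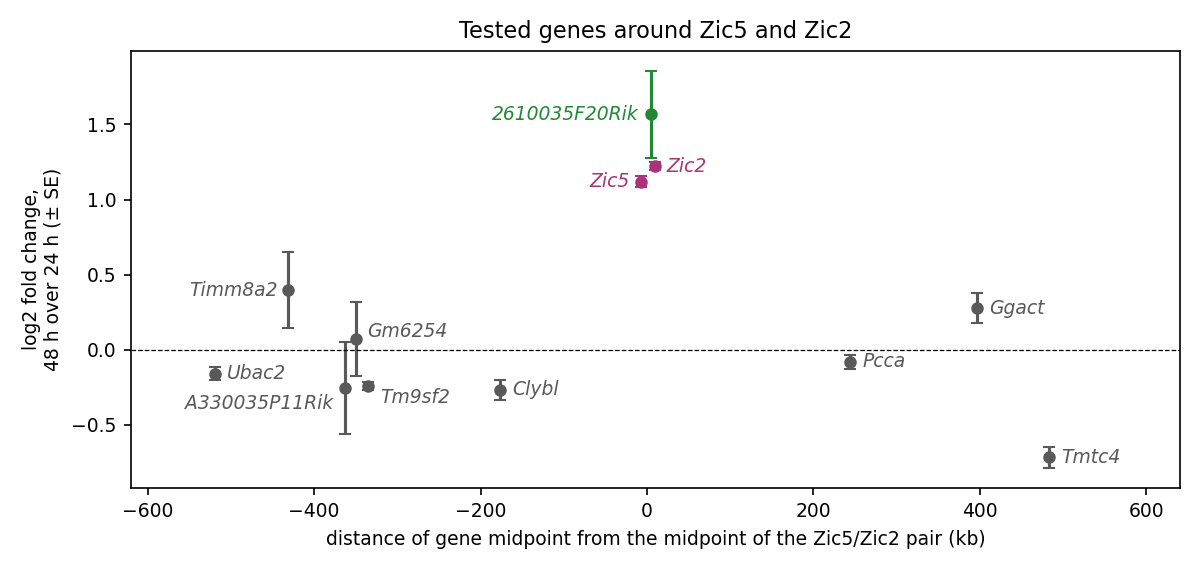
Points are the 12 tested genes within 600 kb of the Zic5 and Zic2 pair, placed by the distance of the gene's midpoint from that of the pair (kb) and by the log2 fold change of 48 h over 24 h, with standard errors. Zic5, Zic2 and 2610035F20Rik lie between 1.12 and 1.57, and the other 9 genes between -0.72 and 0.40.

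By likeness of pattern, measured as the root mean square difference of log2 CPM over the 6 libraries after subtraction of each gene's mean, the genes nearest to Zic2 among 13165 compared were Slc2a1 (a glucose transporter; 0.0172), Sgk1 (a serum-induced kinase; 0.0265) and Ccdc136 (0.0318). Zic5 itself stood at 0.0912 from Zic2, and 57 genes (0.433%) were nearer. The genes nearest to Zic5 were Dnmt3l (a cofactor of the de novo DNA methyltransferases; 0.0328), Nr6a1 (the orphan receptor GCNF; 0.0391) and Itgam (an integrin subunit; 0.0454). Among those nearest to Zic1 were Olig3 (a factor of the dorsal neural tube; 0.143) and Egln3 (an oxygen sensor; 0.157). With 2 groups of libraries this measure is close to likeness of fold change, and the prior count of 2 shrinks the changes of low genes such as Zic1. The log2 fold changes of Slc2a1, Dnmt3l and Olig3 were 1.20, 1.11 and 1.76.

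Lists of related genes were then set beside the ZIC genes, each described by its counts and its median against the median of -0.01 over all tested genes. The counts of this and the following lists stand beside shares of 30.9% called higher and 31.9% called lower over all tested genes. No list was tested against these shares. The closest relatives, the GLI and GLIS genes, did not share one direction. All 6 were tested, 2 were called higher, 3 lower and 1 was not called, with a median log2 fold change of -0.09. Gli3, mainly a repressor in the Hedgehog pathway, rose from a mean of 48.5 ± 0.878 CPM to 60.6 ± 1.41 CPM (SD, n = 3; log2 fold change 0.32, edgeR adjusted p = 9.14e-07). Gli2, mainly an activator, fell from a mean of 85.2 ± 0.427 CPM to 67.1 ± 0.999 CPM (log2 fold change -0.35, edgeR adjusted p = 4.25e-08). Glis3 fell most, from a mean of 5.36 ± 0.216 CPM to 1.08 ± 0.0651 CPM, with -2.31 as the log2 fold change. Gli1 had a log2 fold change of 0.27 and an edgeR adjusted p of 0.0121, which became 0.0814 without replicate 1 of 48 h.

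Of 13 Hedgehog pathway genes, 11 were tested, 3 were called higher and 4 lower, with a median of -0.07. Ptch1, the receptor of the pathway, rose from a mean of 93.2 ± 4.12 CPM to 210.8 ± 1.39 CPM (SD, n = 3 per time). That is a log2 fold change of 1.18 (edgeR adjusted p = 3.3e-15). Its change and its CPM, which is not scaled for length, were near those of Zic2. Smo, the signal transducer, rose by 0.30 on the log2 scale. Hhip, which binds and restrains the ligands, and the co-receptor Boc fell, with log2 fold changes of -1.15 and -1.08. The ligands were scarce. Shh and Ihh had at most 4 counts in a library and were not tested, and Dhh was not called (adjusted p = 0.0806).

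Of 17 neural plate regulators, 12 were tested, and 6 were called higher, 4 lower and 2 not, with a median of 1.002. Irx3, a homeobox factor of the neural plate, rose from a mean of 0.708 ± 0.119 CPM to 8.32 ± 0.0158 CPM (SD, n = 3; log2 fold change 3.55). Sox3, Sox11, Pax6 and Sox1, factors of early neural cells, rose by 2.14, 1.61, 1.56 and 1.31 on that scale. Hes3 had a log2 fold change of 1.55, but passed the filter on low counts through its 48 h libraries. Lhx2, Zfp521, Meis1 and Meis2 fell, with log2 fold changes of -0.92, -0.86, -0.74 and -0.62. The eye and forebrain factors Six3 and Rax, with Hesx1, Lhx5 and Neurog2, had at most 14 counts in a library and were not tested. Of 13 regulators of the neural plate border and neural crest, 6 were tested. Foxd3 and Gbx2 rose by 1.08 and 0.74 on the log2 scale, Msx2, Tfap2c and Tfap2a fell (-2.58, -2.09 and -0.80) and Snai2 was not called. Msx2 passed the filter through its 24 h libraries. Pax3 and Pax7, which act together with Zic1 in the crest, had at most 5 counts.

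Of 5 genes described as direct ZIC targets in other tissues, 2 could be tested. Apoe, the lipid carrier, fell from a mean of 225.1 ± 3.21 CPM to 120.8 ± 4.06 CPM (SD, n = 3 per time), which is a log2 fold change of -0.90 (edgeR adjusted p = 3.04e-14). Atoh1, a factor of cerebellar granule cells, had 9 to 22 counts and a log2 fold change of -0.87 (edgeR adjusted p = 0.0243, and 0.115 with DESeq2). It passed the filter on low counts through its 24 h libraries. Its call was also lost in several fits that left out 1 library (edgeR adjusted p = 0.0963 without replicate 3 of 48 h). Drd1 had no count in any library. All 12 NuRD genes were tested, of which 7 were called higher and 2 lower, with a median of 0.17. Mta3 rose most (0.62), Mbd3 rose from a mean of 101.2 ± 2.63 CPM to 127.0 ± 3.30 CPM (log2 fold change 0.33), and Hdac2 and Mta2 fell (-0.31 and -0.14). All of these NuRD changes were smaller than those of Zic2 and Zic5.

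**Figure D4:**
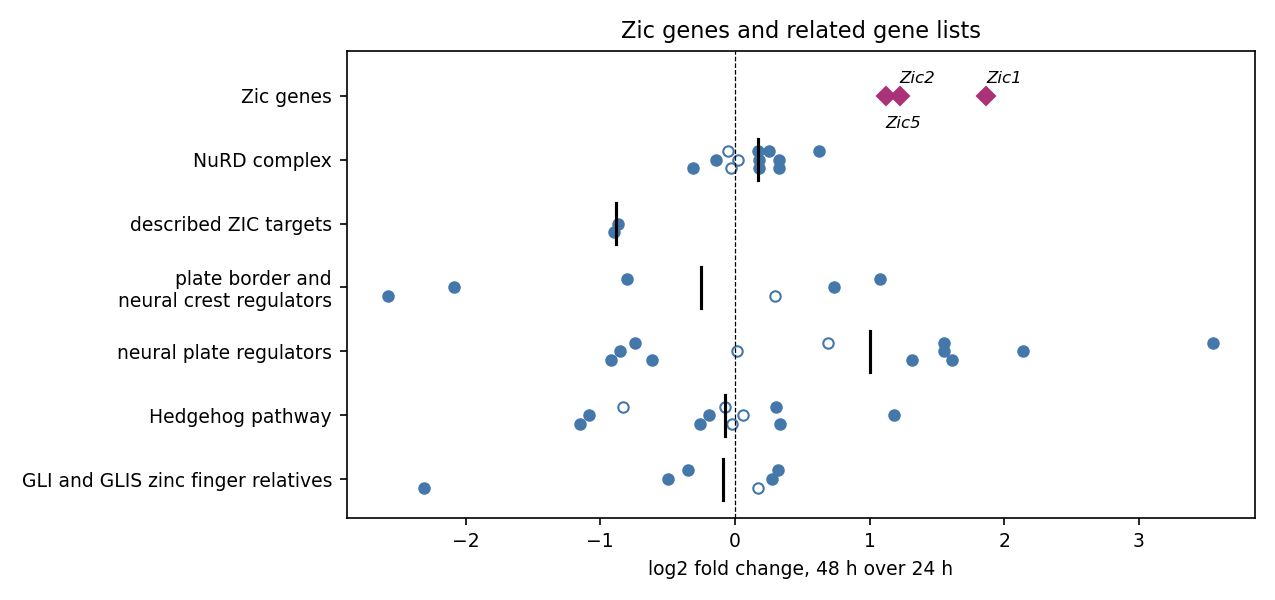
Each circle is a tested gene of a list, placed by its log2 fold change (48 h over 24 h), filled where its adjusted p was under 0.05; black bars are list medians and diamonds the 3 tested ZIC genes. Of the 6 lists drawn, that of neural plate regulators has the highest median, 1.002, and spreads from -0.92 to 3.55.

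In these bulk libraries, a change in the number of cells that express a gene and a change in its RNA per cell cannot be told apart. The pluripotent cell identity of the label was seen in the 7 pluripotency markers, which summed to 2996 to 3056 CPM at 24 h and 2889 to 2945 CPM at 48 h. Within that sum 4 were called higher and 3 lower, with log2 fold changes from -1.99 for Nanog to 1.55 for Lin28a. The 6 formative and primed markers summed to 373.1 to 431.2 and 2540 to 2609 CPM. Of 7 neuronal markers 2 were called higher (Map2 and Elavl3) and 2 lower (Tubb3 and Stmn2), and their sum was 238.9 to 248.6 CPM at 24 h and 154.9 to 168.9 CPM at 48 h, with Dcx at 0 to 2 counts. Sums at 24 h and 48 h were 6.46 to 8.30 and 3.43 to 3.82 CPM for the 6 primitive endoderm markers, of which 2 were tested. Of these, Gata4 fell (log2 fold change -1.38, edgeR adjusted p = 4.89e-07) and Pdgfra was not called. The 6 primitive streak markers, nearly all of it Eomes, summed to 15.9 to 19.02 and 12.9 to 14.96 CPM. The 5 trophoblast markers, Eomes again among them, summed to 16.1 to 18.5 and 13.04 to 15.1 CPM, with 1 of 2 tested called lower. The 5 markers of fibroblast feeders summed to 4.05 to 6.02 and 2.07 to 3.02 CPM, and of the 3 tested Col1a1 and Pdgfrb fell (log2 fold changes -1.76 and -1.80), Col1a1 passing the filter through its 24 h libraries. The part of any such cells in the changes of the ZIC genes was not tested.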

How the data were processed

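The deposited values are the authors' estimated counts per gene, not scaled for depth or length, in 6 libraries made, per the labels' protocols, from RNeasy-purified RNA with a KAPA mRNA HyperPrep kit. The submitters' processing notes name cutadapt 1.9.1, STAR 2.5.2, RSEM 1.3.0 and GRCm38. The annotation and the use of strand are not given in the sources used here. RSEM divides reads between similar genes, so counts can be fractional, and with strand unknown antisense reads cannot be told apart. All 6 columns were matched to samples by title. Gene names came from GENCODE M21, which matched 51633 of 51912 identifiers.

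Counts were rounded, filtered with filterByExpr, scaled by TMM and tested with edgeR 4.0.16 (R 4.3.3), quasi-likelihood, group as the only term, over 14889 genes. The fit was also run on simulated data in which 200 genes were changed. That is far fewer than the 9345 genes called here, so the simulation does not check the fit at such a share. SE is the size of the fold change divided by the square root of F. Alternatives used DESeq2 1.42.0 and limma 3.58.1 (voom). Named genes are the ZIC genes, the listed genes, the 2 nearest genes on each side of a pair and the 3 genes most alike (mean of at least 1 CPM). The members and lists were chosen with earlier results of these data known. A few genes of the family or of these lists are not reported here.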

Additional observations from a re-analysis of the deposited data

How the results depend on the processing

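Zic2 and Zic5 rose with an adjusted p below 0.05 in each of 15 alternative fits (other scalings, filters, DESeq2, limma voom, unrounded counts, the replicate block and leaving out each library), with log2 fold changes from 1.16 to 1.24 and from 1.06 to 1.16. Zic1 did so in the 14 that tested it (1.74 to 2.08, adjusted p of at most 0.000722). All of these but the fit with no filter let Zic1 in through the same filter on low counts, so they do not check that selection. With no filter its log2 fold change was 1.86 (edgeR adjusted p = 1.43e-07). Zic1 was not tested with at least 10 counts in every library. Zic4 had a fitted value only with no filter, 1.93 with a standard error of 1.53 (edgeR adjusted p = 0.374). Leaving out 1 library gave 8737 to 8904 changed genes, and the range over all alternatives was 7986 (DESeq2) to 9792. With library size as the only scaling the median change over all tested genes moved, on the log2 scale, from -0.01 to -0.07 and the share of called genes that were higher from 49.2% to 39.9%. Leaving out 1 library moved the difference of the Zic2 to Zic5 ratio between 0.06 and 0.18 and that of Zic1 to Zic4 between 0.12 and 1.58. Among listed and neighbouring genes named above, Gli1, Atoh1, Ubac2 and Ggact lost their call in at least 1 alternative and Pcca gained one. With the replicate block 9235 genes were called, and the log2 fold changes of Zic1, Zic2 and Zic5 were 1.85, 1.22 and 1.12. Deviations of same-numbered libraries correlated at -0.05, -0.04 and -0.01 over the tested genes, and the numbers were not taken to pair the libraries. Depth limits Zic1 and Zic4.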
